A study of Homo sapiens with 12 samples.

Results

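UK5099 against untreated senescent fibroblasts is the comparison of 3 libraries of irradiated, UK5099-treated cells (Sen(IR)+UK5099) with 3 libraries of irradiated cells left without inhibitor (Sen(IR)). These 6 libraries, of 12 in the study, were taken from the raw count table by their labels, and every gene with enough counts was compared. All cells were MRC5, a strain of human fibroblasts from embryonic lung. Both groups had received 20 Gy of X-rays to induce senescence and were collected between day 10 and day 12, and UK5099 was kept in the medium at 100 μM from day 1 after irradiation. A vehicle for the Sen(IR) cells is not given in the sources used here. The other 6 libraries, proliferating cells (Prol) and irradiated cells given CTPI2, an inhibitor of the mitochondrial citrate carrier SLC25A1 (Sen(IR)+CTPI2), entered the fit and are quoted only as levels.

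UK5099 blocks the mitochondrial pyruvate carrier, a complex of MPC1 and MPC2 in the inner mitochondrial membrane that brings cytosolic pyruvate into the matrix, where it feeds the tricarboxylic acid (TCA) cycle. Senescent cells stay out of the cell cycle but secrete cytokines, chemokines, proteases and growth factors, together called the senescence-associated secretory phenotype (SASP), much of it transcribed through NF-kB. The comparison asks how the transcriptome of senescent cells differs with UK5099, inflammatory and other genes alike. Pyruvate import was not measured in these libraries. Effects of blocking the carrier therefore cannot be told apart here from any other effects of the compound or its vehicle.

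Total counts per library were 20597736 to 22693608 in Sen(IR) and 22986814 to 25848472 in Sen(IR)+UK5099. Levels are counts per 1000000 counts of the TMM-scaled library (CPM), which are shares of reads not corrected for gene length. The floor below which no fold is given, 3 counts, equalled 0.141 CPM in Sen(IR) and 0.117 CPM in Sen(IR)+UK5099. The mitochondrial share of the counts was 2.78 to 3.21% in Sen(IR) and 3.81 to 4.23% in Sen(IR)+UK5099. The fibroblast marker DCN, a matrix proteoglycan, was at 1320 to 1420 CPM in Sen(IR) and 1240 to 1430 CPM in Sen(IR)+UK5099, and VIM, an intermediate filament protein, at 3030 to 3130 and 2710 to 2890 CPM. Summed over 10 fibroblast markers the level was 20700 to 21300 CPM in Sen(IR) and 10900 to 11400 CPM in Sen(IR)+UK5099, with 6 markers called lower, 3 of them collagens and the others PDGFRA, THY1 and FAP. Levels of 7 immune markers summed to 3.19 to 4.03 and 2.48 to 3.41 CPM, and 8 epithelial markers to 24.4 to 27.1 and 16.6 to 18.1 CPM. The part of any change in cell makeup in the results was not tested, and in bulk RNA fewer cells of a type cannot be told apart from less RNA per cell. The labels do not say whether the 3 libraries of a group came from separate cultures, so p-values measure the spread between these libraries. The study's figure legends speak of 3 independent conditions for the UK5099 RNA-seq and of 3 independent experiments for the CTPI2 heatmaps, without further detail.

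UK5099 changed the level of 3386 of the 16251 genes tested (20.8%), 1423 of them higher (8.76%) and 1963 lower (12.1%). Calls needed an edgeR quasi-likelihood p below 0.05 after Benjamini-Hochberg adjustment over all genes tested, and a log2 fold change beyond 0.5 in either direction. For 9192 genes (56.6%), called or not, all libraries of one group lay above all of the other. The lowered genes moved further than the raised ones. Their median absolute log2 fold change was 1.09 against 0.79, and 445 lowered genes but 44 raised genes passed an absolute log2 fold change of 2. Summed over the called genes, the mean levels of raised genes gained 35800 CPM and those of lowered genes fell by 94100 CPM. The median log2 fold change of all genes was 0.01. A broad inflammatory set held cytokines and their receptors, NF-kB, interferon, antigen presentation, complement, prostaglandin and innate immune genes. It also held others, among them MMP1, MMP3, MMP10 and SERPINB2. Of 292 tested genes in this set, 156 were called lower (53.4%) and 5 higher (1.71%). Most of the lowered genes therefore lay outside it: 1807 of 15959 genes were called lower (11.3%) and 1418 higher (8.89%). The lowered inflammatory genes had a median log2 fold change of −2.13, and the other lowered genes one of −1.03.

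**Figure D1:**
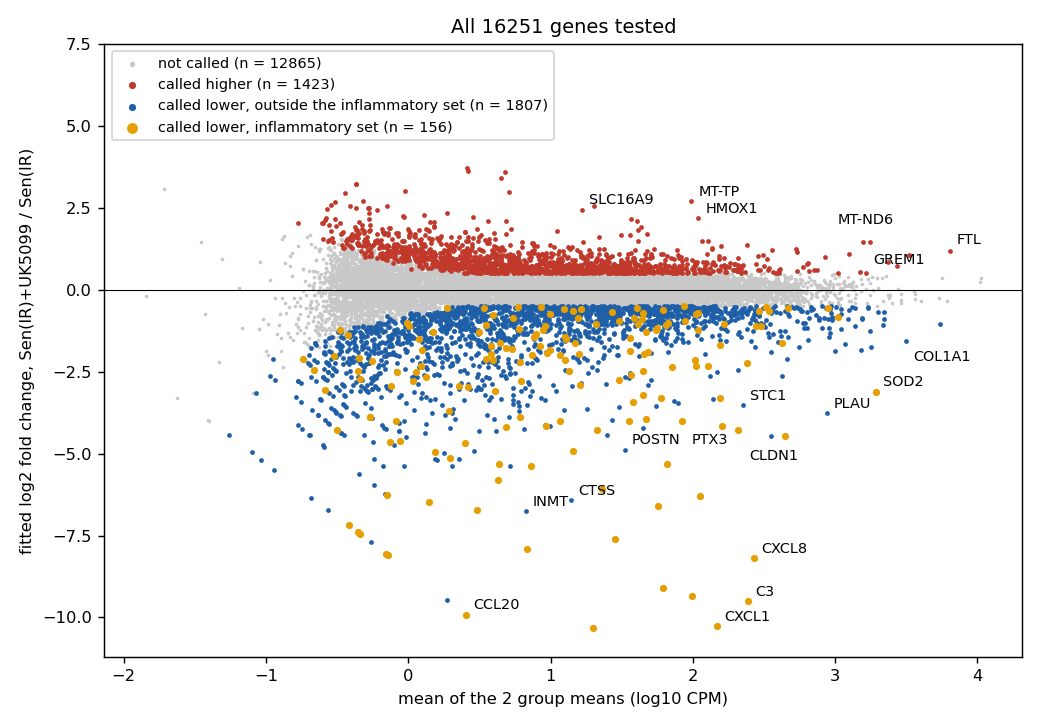
Fitted log2 fold change of Sen(IR)+UK5099 against Sen(IR) (vertical axis) against the mean of the group means in log10 CPM (horizontal axis), 1 point per tested gene, coloured by call. The lowered genes reach −10.27 (CXCL1) at well-counted levels, while the furthest raised gene among the labelled ones is MT-TP at 2.71.

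Leading genes were taken from those with a mean log2 CPM above 1 over the 12 libraries. Among these, the raised genes were led by a mitochondrial tRNA gene, by enzymes and transporters of small molecules, and by antioxidant response genes. MT-TP, the mitochondrial proline tRNA, was at 27.7, 27.0 and 22.9 CPM in the Sen(IR) libraries and at 167, 178 and 164 CPM in those with UK5099, or 2.71 ± 0.0759 on the log2 scale (edgeR adjusted p 6.74e-18). Values in brackets without a unit from here on are log2 fold changes of UK5099 over no inhibitor, with ± for the standard error (SE). The groups did not overlap, and the means in Prol (12.1 CPM) and Sen(IR)+CTPI2 (24.3 CPM) were below that of Sen(IR). The MT-TP gene (chromosome M, 15956 to 16023) is shorter than the 150-base reads, as are the other mitochondrial tRNA genes. Their counts can therefore come from longer transcripts that cross them and need not measure mature tRNAs. SLC16A9, a plasma membrane carrier of the monocarboxylate transporter family (chromosome 10, 59650764 to 59736002), was at 5.07, 5.40 and 5.10 CPM without and 29.9, 26.3 and 28.3 CPM with UK5099 (2.44 ± 0.108, edgeR adjusted p 2.92e-14). MTARC1, a molybdenum enzyme of the outer mitochondrial membrane, rose from 5.80 to 34.3 CPM (2.57, edgeR adjusted p 1.39e-13).

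HMOX1, the heme oxygenase that frees iron from heme (chromosome 22, 35380361 to 35394214), was at 42.1, 40.7 and 34.8 CPM in Sen(IR) and at 172, 182 and 183 CPM in Sen(IR)+UK5099 (2.19 ± 0.0665, edgeR adjusted p 2.99e-17). All libraries with UK5099 lay above all without, as required of a leading gene, and Sen(IR)+CTPI2 stood at 39.5 CPM. GUCY1B1, the heme-binding beta subunit of the nitric oxide receptor guanylate cyclase, rose from 13.4 to 60.3 CPM (2.17, edgeR adjusted p 1.36e-12), and MAOA, which oxidizes monoamines at the outer mitochondrial membrane, from 15.4 to 65.5 CPM (2.09, edgeR adjusted p 3.99e-12). Among phospholipases C of the delta class, PLCD1 went from 18.1 to 68.0 CPM (1.90) and PLCD4, with 34.0% of its exon bases shared with other genes, from 4.94 to 17.2 CPM (1.80), while PLCD3 was at 0.13 and not called. The other leading raised genes were the ubiquitin ligase RNF150 (1.70), the kinase WNK3 (1.73), the amino acid transporter SLC7A8 (1.71), OSGIN1, ZNF185, FAM169A (43.3% of exon bases shared) and the noncoding AL021368.2, with log2 fold changes of 1.66 to 2.09.

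**Figure D2:**
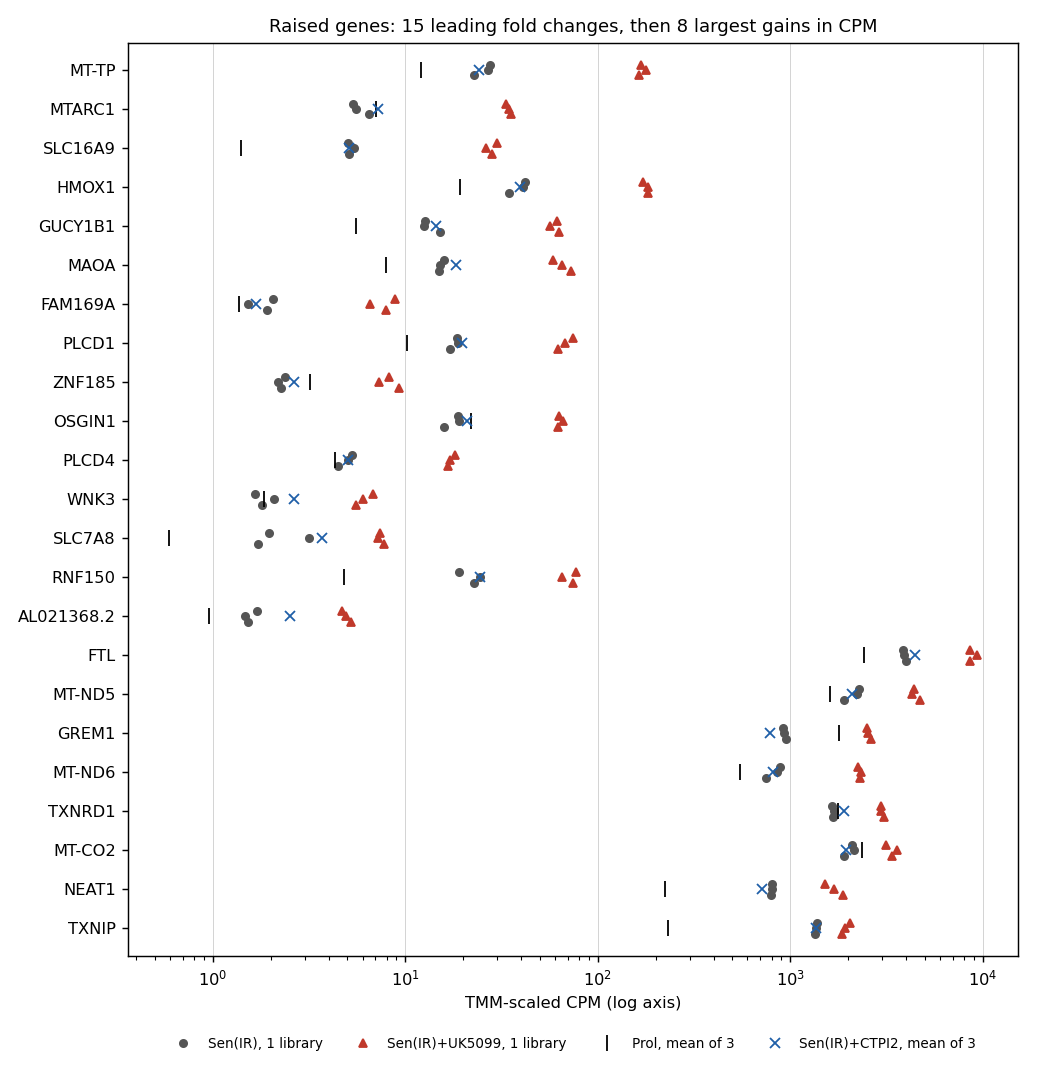
Level of each leading raised gene in each library, in TMM-scaled CPM on a log axis, with grey circles for Sen(IR), red triangles for Sen(IR)+UK5099, bars for the Prol mean and crosses for the Sen(IR)+CTPI2 mean. For all 23 genes the 3 libraries with UK5099 lie to the right of the 3 without, from AL021368.2 (1.56 to 4.96 CPM) to FTL (3924 to 8840 CPM). For the 15 leading fold changes this was a condition of their choice.

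Some genes at low levels in Sen(IR) rose by larger folds and were named after their values were seen. They were not among the leading genes, which needed a mean log2 CPM above 1 over the 12 libraries. PCLO, a presynaptic scaffold protein, was at 0.356, 0.901 and 0.932 CPM in Sen(IR) and at 8.49, 9.12 and 8.68 CPM with UK5099 (3.59, edgeR adjusted p 1.72e-11). DUSP15, a phosphatase, rose from 0.357 to 4.82 CPM (3.73), TPPP, a tubulin-binding protein, from 0.765 to 8.18 CPM (3.41), and NGFR, the low-affinity neurotrophin receptor, from 1.15 to 9.02 CPM (2.97). In Sen(IR)+CTPI2 the means of these 4 genes were 0.745, 0.383, 0.875 and 0.932 CPM. FABP4, a fatty acid-binding protein also used as an adipocyte marker, went from 1.01 to 4.66 CPM (2.21, edgeR adjusted p 1.49e-07), while ADIPOQ, the defining adipocyte hormone, was at 0 CPM in all Sen(IR) libraries and at most 0.116 CPM with UK5099. In all, 12 raised genes had at most 3 counts in every Sen(IR) library. DCT, an enzyme of melanin synthesis, was at least 5.24-fold higher with UK5099, taking the floor of 3 counts per library for Sen(IR), and the kinase SGK2 at least 4.74-fold higher.

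Targets of NRF2, the transcription factor of the oxidant and electrophile response, formed the list with the highest median of 53 lists examined (0.60, against 0.01 for all genes). Of 27 tested members, 15 were called higher and 1 lower. HMOX1 and OSGIN1, a growth inhibitor induced by oxidized lipids, led it, followed by EPHX1, the microsomal epoxide hydrolase, which rose from 134 to 348 CPM (1.38, edgeR adjusted p 4.05e-13). FTL, the ferritin light chain, had the largest gain in CPM of all genes: 3865, 3917 and 3989 CPM became 8577, 9373 and 8568 CPM (1.17 ± 0.0523, edgeR adjusted p 3.23e-14), with no overlap. FTH1, the ferritin heavy chain, was at a log2 fold change of 0.05 and not called. The thioredoxin and glutathione branches rose by less: TXNRD1, the thioredoxin reductase, from 1668 to 3000 CPM (0.85), SLC7A11, the cystine importer, from 563 to 1120 CPM (0.99), GCLM, the modifier subunit of glutathione synthesis, from 140 to 277 CPM (0.98), and NQO1, a quinone reductase, from 593 to 900 CPM (0.60). GCLC, the catalytic partner of GCLM, was at −0.05 and not called. In the pentose phosphate pathway PGD rose from 468 to 829 CPM (0.82). AKR1C1, AKR1C2 and AKR1C3, aldo-keto reductases, were called higher at 1.07, 1.05 and 1.14, but their near-identical sequences can split reads among them. The member called lower, AKR1B10, went from 2.06 to 1.17 CPM (−0.81), and its call was lost without any 1 of the 6 libraries other than Sen(IR) replicate 1. NFE2L2, the gene of NRF2 itself, was at 0.32 and not called.

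Transcripts of the mitochondrial genome did not move together. Of 13 protein genes, 3 were called higher and 1 lower, with a median of 0.23. MT-ND6, a complex I subunit and the protein read from the light-strand transcript, was at 883, 854 and 751 CPM in Sen(IR) and at 2251, 2338 and 2319 CPM with UK5099 (1.47 ± 0.0882, edgeR adjusted p 5.61e-12). Its neighbour MT-ND5, on the opposite strand (chromosome M, 12337 to 14148), rose from 2138 to 4462 CPM (1.06), and MT-CO2, a cytochrome oxidase subunit, from 2047 to 3371 CPM (0.72). MT-CO3, another subunit of the same enzyme, was lower, at 2735, 2872 and 2461 CPM in Sen(IR) and 1524, 1823 and 1720 CPM with UK5099 (−0.67, edgeR adjusted p 4.37e-07). Of 12 heavy-strand protein genes 2 were called higher and 1 lower (median 0.23). Of 10 heavy-strand tRNA genes 2 were called higher and 1 lower (median 0.59), and of 8 light-strand tRNA genes 4 higher and 1 lower (median 0.76). The difference between the strands was not tested. MT-TE, next to MT-ND6, rose from 5.20 to 11.1 CPM (1.09), and MT-TY fell from 5.28 to 2.24 CPM (−1.23). Whether the libraries kept the strand is not given in the sources used here, so reads of one strand's transcript can lie in a gene of the other. Nuclear-encoded complex I subunits gave no call in 38 genes, with a median of −0.13.

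**Figure D3:**
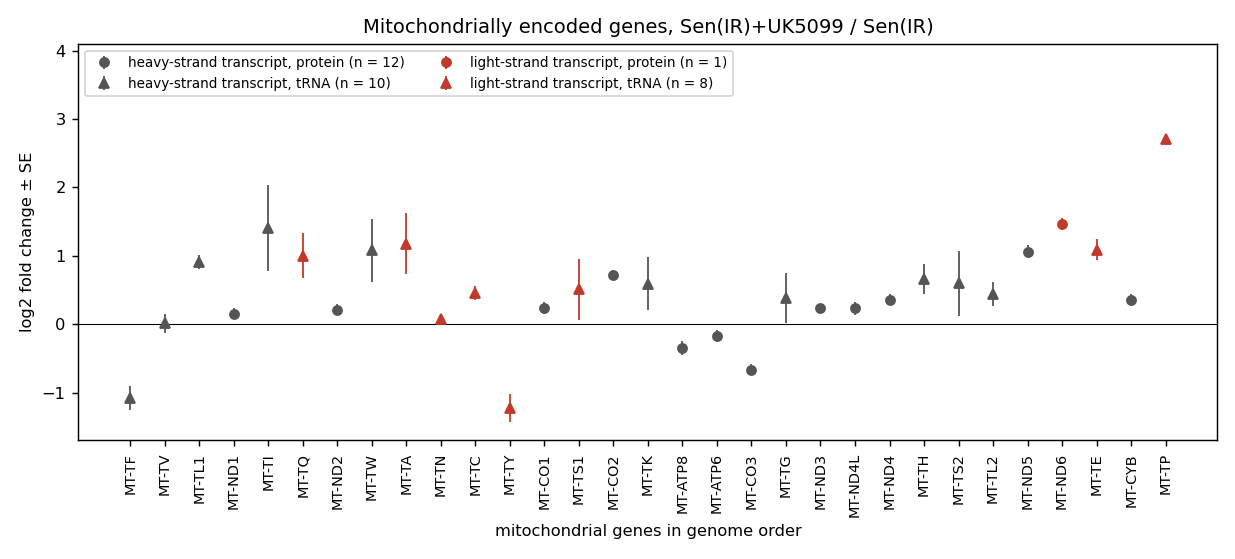
Log2 fold change with UK5099 (± SE) of each tested mitochondrially encoded gene in genome order, with circles for protein genes and triangles for tRNAs, grey for the heavy-strand and red for the light-strand transcript. MT-TP (2.71) and MT-ND6 (1.47) lie above 0 by many SE, and MT-CO3 (−0.67) lies below 0.

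The target of the inhibitor and most enzymes that use its cargo gave small differences. MPC1 was at 14.4, 13.7 and 16.4 CPM in Sen(IR) and 19.4, 19.2 and 18.0 CPM with UK5099, a difference (0.35 ± 0.0924, edgeR adjusted p 0.00367) that was under the fold limit although the groups did not overlap. MPC2 was at 57.1 and 52.5 CPM (−0.12 ± 0.0691, edgeR adjusted p 0.165), with overlapping libraries and 21.8% of its exon bases shared with DCAF6. Of 18 genes of pyruvate import and use, 1 was called higher and 1 lower: PC, pyruvate carboxylase, which makes oxaloacetate, rose from 8.79 to 14.8 CPM (0.75, edgeR adjusted p 3.04e-06), and PDHX, a structural part of pyruvate dehydrogenase, fell from 83.3 to 47.8 CPM (−0.80, edgeR adjusted p 9.64e-11). Without UK5099 replicate 2 or 3, 2 genes of this list were called lower. Of 24 TCA cycle genes, 2 were called in each direction, and the changes were small: the mitochondrial IDH2 (0.51) and ME3 (0.59) were higher, though IDH2 lost its call without either Sen(IR) replicate 1 or 3 or UK5099 replicate 1 or 2, and ME3 without the last of these, and PCK2 (−0.63) and the cytosolic aconitase ACO1 (−0.56) lower. In glutamine metabolism GLUL, which makes glutamine, rose from 91.7 to 160 CPM (0.81).

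Glycolytic genes were more often lower than higher. Of 22 tested, 10 were called lower and 3 higher, with a median of −0.34. HK2, the inducible hexokinase, fell from 197 to 74.4 CPM (−1.41), ALDOA from 1076 to 593 CPM (−0.86) and PKM from 2463 to 1524 CPM (−0.69). The glucose transporter gene SLC2A12 (51.2% of exon bases shared with a neighbour) rose from 15.8 to 33.3 CPM (1.08), and PFKFB2, which makes an activator of glycolysis, from 8.25 to 15.6 CPM (0.92). At the lactate step LDHA was at 832, 844 and 841 CPM in Sen(IR) and 366, 394 and 365 CPM with UK5099 (−1.16 ± 0.0497, edgeR adjusted p 1.54e-14), while LDHB was at −0.19 and not called. SLC16A3, the lactate exporter, fell from 242 to 128 CPM (−0.92), in contrast to its family member SLC16A9. Among 19 hypoxia targets 9 were called lower and none higher, led by the secreted glycoprotein STC1 (412 to 35.6 CPM, −3.53) and including P4HA1 (−1.42), VEGFA (−1.41) and CA12 (−1.38). Of 6 glucose-sensing targets of MondoA, 2 were called higher and 1 lower, with a median of 0.08. TXNIP and ARRDC3, arrestin-like proteins, rose from 1362 to 1941 CPM (0.51) and from 112 to 221 CPM (0.98), and the transcription factor KLF10 fell from 85.6 to 35.4 CPM (−1.27). Without UK5099 replicate 1, TXNIP (0.47) was not called.

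Amino acid stress genes under ATF4 had 16 of 27 tested members called lower and 2 higher, with a median of −0.65. CHAC1, which degrades glutathione, fell from 24.9 to 5.94 CPM (−2.07), as did PHGDH (−1.22) and PSAT1 (−1.16) of serine synthesis and the secreted STC2 (−1.31) and GDF15 (−1.26). The higher members were SLC7A11 (0.99), also an NRF2 target, and SLC3A2 (0.75), the subunits of the cystine importer. Of 21 endoplasmic reticulum chaperone and stress genes, 8 were called lower and none higher, all with negative log2 fold changes down to −1.0 (DNAJB9). The list of metallothioneins, small proteins that bind zinc and copper, had 4 members tested, 3 of them called lower and none higher. MT2A was at 134, 130 and 140 CPM in Sen(IR) and 13.5, 13.9 and 10.7 CPM with UK5099 (−3.40 ± 0.110, edgeR adjusted p 8.88e-17). MT1E (−3.10) and MT1X (−2.32) were called lower as well, although reads of this family can be shared among near-identical copies. The fourth member, SLC30A1, is a zinc exporter induced with them rather than a metallothionein, and was at 155 and 199 CPM (0.36, edgeR adjusted p 3.63e-05), under the fold limit.

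Lists of sterol, nutrient and clock genes held some raised members, and most members of the sterol and FOXO lists were not called. Of 22 sterol synthesis and uptake genes, 5 were called higher and none lower, with a median of 0.13, among them TM7SF2, a sterol reductase, which went from 5.46 to 11.8 CPM (1.10). Of 16 FOXO and growth-arrest targets, 4 were higher and 2 lower. SESN3, an inhibitor of mTORC1 signalling, was at 58.3, 60.3 and 64.9 CPM in Sen(IR) and at 161, 166 and 184 CPM with UK5099 (1.48 ± 0.125, edgeR adjusted p 2.01e-09), without overlap. CCNG2, a cyclin linked to arrest, rose from 79.9 to 171 CPM (1.10), and INSR, the insulin receptor, from 10.6 to 22.1 CPM (1.06). Of 20 clock and glucocorticoid genes 6 were higher and 4 lower, with the repressors PER3 (1.08) and CRY2 (0.98) and the activator TEF (0.95) raised and BHLHE40 (−1.42) lowered. ATP6V1A, the catalytic subunit of the lysosomal proton pump, rose from 338 to 743 CPM (1.14, edgeR adjusted p 2.18e-15) and was the only one of 34 lysosomal genes called higher.

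Among well-counted raised genes, GREM1, a secreted antagonist of bone morphogenetic proteins (chromosome 15, 32718004 to 32745106), was at 914, 926 and 948 CPM in Sen(IR) and at 2521, 2542 and 2618 CPM with UK5099 (1.46 ± 0.0858, edgeR adjusted p 3.99e-12). It went against its list, in which 10 of 21 genes of the TGF-beta and BMP response were called lower and 3 higher. NEAT1, the noncoding RNA that scaffolds paraspeckles, rose from 798 to 1698 CPM (1.09). Another 4 raised genes were named after their values were seen. XPO1, the nuclear export receptor, was at 218, 217 and 211 CPM in Sen(IR) and 501, 480 and 523 CPM with UK5099 (1.22, edgeR adjusted p 4.98e-15), with Sen(IR)+CTPI2 at 215 CPM. SLC44A2, a choline transporter, rose from 318 to 748 CPM (1.24), MDK, a heparin-binding growth factor, from 66.9 to 189 CPM (1.5), and HMGB2, a chromatin protein that is lost in senescence, from 21.7 to 60.5 CPM (1.48), against 216 CPM in Prol.

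The lowered genes outside the inflammatory set were led by single genes of methylation, proteolysis, junctions and matrix. INMT, a methyltransferase of small amines (chromosome 7, 30697985 to 30757602, partly overlapped by a neighbour), was at 13.2, 14.1 and 12.3 CPM in Sen(IR) and at 0.166, 0.111 and 0.0775 CPM with UK5099 (−6.76 ± 0.233, edgeR adjusted p 3.07e-16). CTSS, the cathepsin that trims antigen-presenting complexes, went from 28.3, 26.4 and 27.5 CPM to 0.290, 0.408 and 0.233 CPM (−6.43 ± 0.149, edgeR adjusted p 2.44e-19). CLDN1, a tight junction protein (chromosome 3, 190305707 to 190322446), was at 681, 664 and 682 CPM without and 31.3, 32.0 and 28.1 CPM with UK5099 (−4.47 ± 0.129, edgeR adjusted p 1.16e-17). No library of one group reached the other for any of them, as the choice of leading genes required. The level of CLDN1 with UK5099 lay below its 61.2 CPM in Prol.

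PLAU, the urokinase that activates plasminogen (chromosome 10, 73909177 to 73917496), combined a large fold with a high level: 1665, 1594 and 1619 CPM in Sen(IR) and 129, 129 and 104 CPM with UK5099 (−3.76 ± 0.0706, edgeR adjusted p 5.76e-21). C10orf55 shares 31.0% of its exon bases. ATP8B4, a phospholipid flippase, fell from 51.0 to 3.28 CPM (−3.96), LRRN3, a leucine-rich repeat membrane protein, from 47.8 to 2.22 CPM (−4.42), and ANKRD1, a target of YAP, from 3.71 to 0.193 CPM (−4.22). HBD, the delta globin gene, fell from 10.1 to 0.238 CPM (−5.39), with the caveat that globin genes resemble each other. POU2F2 (−4.16), EPSTI1 (−4.12) and TMEM156 (−3.95) fell as well, and EPSTI1 is known as an interferon-responsive gene although it was not in the inflammatory set. Of 99 lowered genes with at most 3 counts in every UK5099 library, 16 were inflammatory. MIR3142HG, the host transcript of miR-146a, was at 4.14, 3.60 and 3.53 CPM in Sen(IR) and at 0 in all 3 UK5099 libraries, at least 32.1-fold lower.

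**Figure D4:**
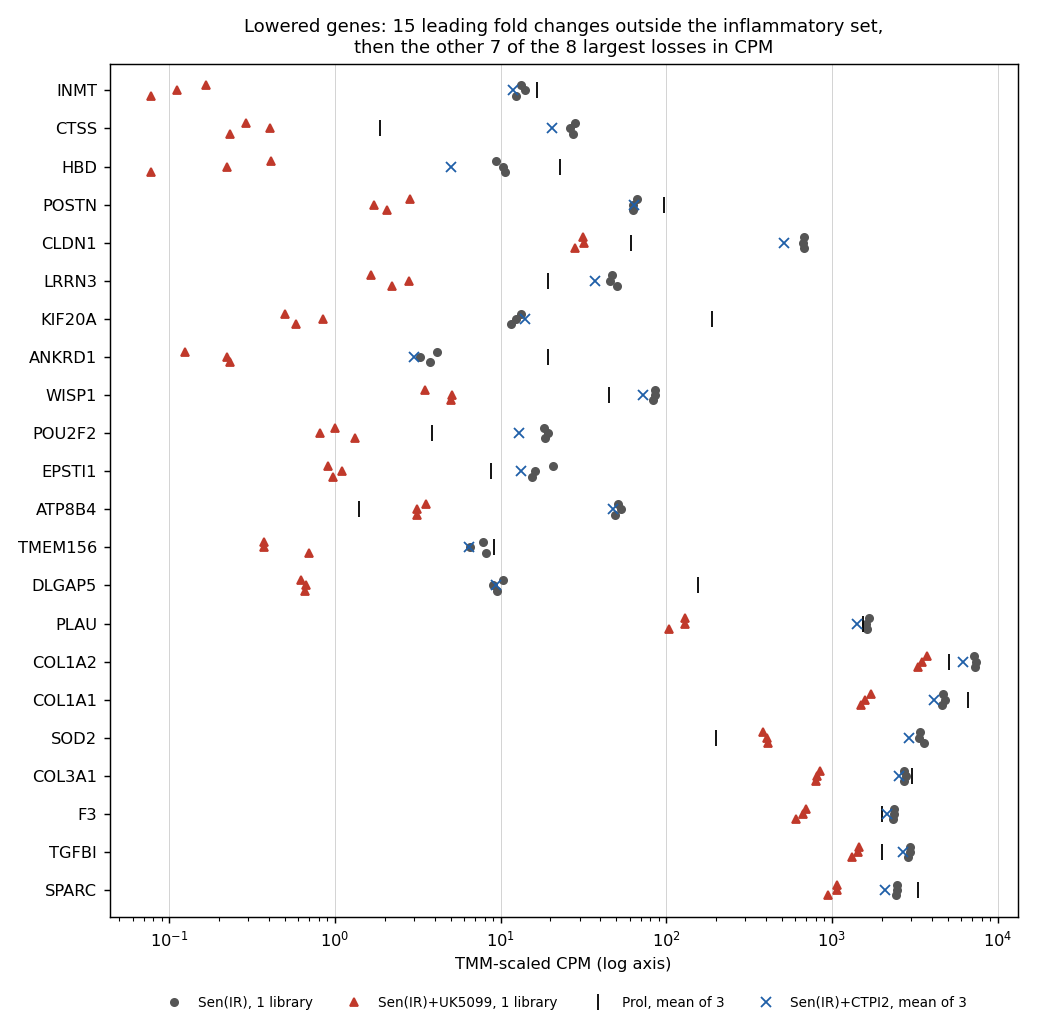
Level of each leading lowered gene outside the inflammatory set in each library, followed by the largest losses in CPM (SOD2 among them is in the inflammatory set), in TMM-scaled CPM on a log axis with symbols as for the raised genes. All red triangles (Sen(IR)+UK5099) lie left of the grey circles (Sen(IR)), from INMT (13.2 to 0.118 CPM) to COL1A2 (7321 to 3519 CPM). For the 15 leading fold changes this was a condition of their choice.

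Collagens and the enzymes that mature them were mostly called lower. Of 23 collagens tested, 18 were called lower and 1 higher, with a median of −1.05. COL1A1, the alpha 1 chain of type I collagen, was at 4681, 4820 and 4642 CPM in Sen(IR) and 1719, 1580 and 1504 CPM with UK5099 (−1.56 ± 0.0600, edgeR adjusted p 2.33e-15), and COL3A1 of type III at 2722, 2797 and 2738 and at 849, 811 and 797 CPM (−1.75). COL11A1 fell furthest (−2.35), with COL6A3 (−1.64), COL5A2 (−1.19) and COL1A2 (−1.06) behind it. COL12A1 was the member called higher (859 to 1222 CPM, 0.51), and no collagen was called higher without Sen(IR) replicate 1 or 3 or Sen(IR)+UK5099 replicate 1. FAP, a surface protease of activated fibroblasts, fell from 145 to 13.2 CPM (−3.45). The enzymes that mature collagen followed: 10 of 15 were called lower and none higher, led by the cross-linking oxidases LOXL2 (595 to 199 CPM, −1.58) and LOX (950 to 330 CPM, −1.53) and the prolyl hydroxylase P4HA1. POSTN, a matricellular protein that binds collagen (chromosome 13, 37562583 to 37598844), was at 67.0, 62.8 and 63.0 CPM in Sen(IR) and 2.82, 1.71 and 2.05 CPM with UK5099 (−4.88 ± 0.117, edgeR adjusted p 4.25e-19), and WISP1, now named CCN4, fell from 84.6 to 4.56 CPM (−4.21). Of 19 elastic fibre and matricellular genes 8 were called lower and 1 higher (median −0.99), and of 17 proteoglycan and hyaluronan genes 6 lower and 1 higher (median −0.50), leaving 10 of each not called. SPARC (−1.25), TGFBI (−1.07) and TNC (−2.03) were lower, and THBS1 was higher (1220 to 1759 CPM, 0.53). FN1, fibronectin, was at −0.24 and the proteoglycans DCN and LUM at 0.00 and 0.05, none of them called.

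Of 16 matrix metalloproteinases and TIMPs, 6 were called lower and 1 higher, or 2 higher without UK5099 replicate 2. MMP1 and MMP3, a collagenase and a stromelysin of the SASP, fell from 214 to 43.0 CPM (−2.32) and from 167 to 38.2 CPM (−2.13). The inhibitor TIMP3 fell from 560 to 150 CPM (−1.90). MMP1 and MMP3 belong to the inflammatory set, and TIMP3 does not. MMP2 (−0.13), TIMP1 (0.12) and TIMP2 (0.17) were not called, and MMP11 rose from 4.23 to 7.51 CPM (0.83). Of 17 contractile genes 10 were called lower and none higher, led by the smooth muscle actin ACTG2 (61.7 to 10.6 CPM, −2.54) and by TAGLN (350 to 64.3 CPM, −2.44), which shares 47.8% of its exon bases with other genes. ACTA2, the alpha smooth muscle actin of myofibroblasts, fell from 72.8 to 36.4 CPM (−1.0).

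Secreted signals outside inflammation were lowered as well. Of 22 growth factor ligands 17 were called lower and none higher, with a median of −1.24. HGF, the hepatocyte growth factor, fell from 859 to 257 CPM (−1.74), FGF7 from 680 to 251 CPM (−1.44), NRG1, a ligand of ERBB receptors, from 89.1 to 13.2 CPM (−2.75), and GDNF from 8.54 to 1.67 CPM (−2.36). BMP2 (−2.69) and INHBA (−1.51) fell in the TGF-beta family, and IGFBP6 (−2.21) and IGFBP3 (−1.91) among the IGF-binding proteins. In the Wnt pathway 10 of 26 genes were called lower and 2 higher: WNT16 went from 101 to 8.70 CPM (−3.54), and RSPO2, an agonist, rose from 4.59 to 10.7 CPM (1.22). Without Sen(IR) replicate 1, 4 Wnt genes were called higher. Axon guidance and junction genes had 13 of 28 lower and 2 higher, with SLIT2 (−2.93), the gap junction protein GJA1 (−1.75) and SEMA3A (−1.55) among them. Of 18 genes in the integrin list 5 were called lower and 1 higher (ITGA10, 1.14 to 2.05 CPM, 0.85, not called without Sen(IR) replicate 1), but the leading members, VCAM1 (845 to 38.7 CPM, −4.45) and ICAM1 (304 to 17.2 CPM, −4.15), are ligands of integrins on leukocytes and belong to the inflammatory set. Immediate-early transcription factors had 11 of 19 lower and none higher, with EGR2 (−4.08) first and JUN (0.11) and MYC (−0.48) not called.

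Genes of cell division, already low in Sen(IR), were lower still. Of 33 mitotic genes 31 were called lower and none higher, with a median of −1.56, and of 32 DNA replication genes 18 were called lower and none higher, with a median of −0.67. KIF20A, a kinesin of the cytokinetic midzone, was at 13.3, 12.4 and 11.5 CPM in Sen(IR), at 0.497, 0.853 and 0.581 CPM with UK5099 and at 188 CPM in Prol (−4.25 ± 0.143, edgeR adjusted p 1.93e-16). RRM2, the regulated subunit of ribonucleotide reductase, fell from 55.8 to 4.61 CPM against 581 CPM in Prol (−3.59, edgeR adjusted p 6.85e-17). CDC20, an activator of the anaphase-promoting complex, was at 6.11 and 0.954 CPM (−2.67), CCNB2, a mitotic cyclin, at 7.42 and 2.67 CPM (−1.47), and PLK1, a mitotic kinase, at 4.04 and 1.54 CPM (−1.37). Many mitotic promoters carry CCAAT boxes, bound by the factor NF-Y. The pentamer CCAAT, searched on both strands from 250 bases before to 50 after the start site (RefSeq, GRCh38.p14), was found in 76.9% of 26 lowered mitotic genes with a promoter in the table and in 75.0% of all 28 tested ones, against 36.3% of 11636 tested genes. The 4 stretches show it in capitals (ATTGG when on the other strand), each being the 100 bases just before the start site, written 5′ to 3′ in the direction of the gene.
KIF20A, chr5:138179012-138179111, plus strand: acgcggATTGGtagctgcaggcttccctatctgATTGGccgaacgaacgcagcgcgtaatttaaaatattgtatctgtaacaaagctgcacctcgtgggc
CDC20, chr1:43358881-43358980, plus strand: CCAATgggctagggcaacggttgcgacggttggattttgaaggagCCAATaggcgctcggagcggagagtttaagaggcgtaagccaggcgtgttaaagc
CCNB2, chr15:59105046-59105145, plus strand: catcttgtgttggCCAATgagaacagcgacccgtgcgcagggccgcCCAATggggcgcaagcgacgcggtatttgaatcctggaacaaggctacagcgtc
PLK1, chr16:23678789-23678888, plus strand: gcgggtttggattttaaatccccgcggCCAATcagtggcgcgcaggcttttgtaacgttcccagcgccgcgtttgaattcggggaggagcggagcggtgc

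Replication-dependent histones did not fall as a list: of 24 tested, 5 were called higher and 1 lower, with a median of −0.01. The lowered gene, HIST1H2BO, went from 0.573 to 0.208 CPM, a call lost without any 1 library other than Sen(IR) replicate 3. Among the raised genes, HIST1H4H, HIST1H2BN and HIST1H2BE had Sen(IR) means of 62.6, 6.21 and 1.34 CPM. Their means in dividing cells (Prol) were lower, 3.3, 1.18 and 0.226 CPM, so histone counts are not read here as a measure of S phase. Paralogous histone genes can also share reads. Cytosolic ribosomal proteins gave no call in 78 genes, with log2 fold changes between −0.31 and 0.31, and of 73 mitochondrial ribosomal proteins 7 were called lower and 1 higher, or 2 higher without Sen(IR) replicate 1 or UK5099 replicate 2. Of 24 p53 targets, 4 were called lower (GDF15, PLK3, FAS and TNFRSF10B, −0.64 to −1.26) and 1 higher (TP53INP1, 0.58).

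In the inflammatory set the fall ended at or near the floor for several genes. Of 11 CXC chemokines tested 9 were called lower (median −6.07), of 6 CC and CX3C chemokines 5 (−5.15), and of 17 interleukins and colony-stimulating factors 15 (−2.48), with none called higher. CXCL1, a neutrophil chemoattractant (chromosome 4, 73869393 to 73871308), was at 290, 299 and 296 CPM in Sen(IR) and 0.207, 0.223 and 0.271 CPM with UK5099, close to the 0.308 CPM of Prol. C3, the central complement component (chromosome 19, 6677704 to 6730562, 11.7% of exon bases shared), was at 480, 496 and 475 CPM without and 0.580, 0.742 and 0.659 CPM with UK5099 (−9.50 ± 0.0965, edgeR adjusted p 8.87e-26). TNFSF18, a ligand of the TNF family, fell from 198 to 0.293 CPM (−9.35), and CCL20 from 5.10 CPM to 0 in all 3 libraries, at least 43.6-fold lower. The complement list as a whole fell by much less than C3: 4 of 15 members were called lower and none higher, with a median of −0.43. Of the 15, 12 were negative and 3 positive. CFB, with 42.8% of its exon bases shared with other genes, fell from 4.03 to 0.512 CPM (−2.95). The CXCL genes resemble each other in sequence, which limits how surely reads are assigned among them.

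The promoters of CXCL1, CXCL2, CXCL3, CXCL5 and CXCL6 each held the 10-base kappa B motif, GGGNN followed directly by TTTCC, the site type bound by NF-kB, as did that of IL6. The letters, searched on both strands, were found in 46.2% of 13 tested chemokine genes with a promoter in the table, in 17.3% of 110 lowered inflammatory genes, in 1.97% of the 1267 other lowered genes, in 1.96% of 971 raised genes and in 2.14% of all 11636 promoters. Some other motifs searched also differed in the 110 lowered inflammatory genes. The TATA box (TATAAA) was in 22.7% of them, in 10.7% of the 1267 other lowered genes and in 6.06% of all promoters. For the AP-1 motif (TGANTCA) these shares were 13.6%, 7.1% and 4.86%. The E-box (CACGTG) was less frequent, in 2 of the 110 (1.82%) against 9.87% of all promoters. The CRE motif (TGACGTCA) was also in 2 of the 110 (1.82%), too few to set apart from its 3.31% of all promoters. The 6 stretches of the 100 bases before the start site mark the kappa B motif in capitals. In the 5 CXCL genes the match begins 78 to 91 bases before the start site, and the other chemokine gene with a match was CCL20. CXCL8 held no match in its window, but only these exact letters were searched. A site with other letters would be missed, so the CXCL8 promoter is not shown to lack one.
CXCL1, chr4:73869293-73869392, plus strand: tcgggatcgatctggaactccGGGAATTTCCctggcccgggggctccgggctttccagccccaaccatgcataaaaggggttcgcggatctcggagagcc
CXCL2, chr4:74099196-74099295, minus strand: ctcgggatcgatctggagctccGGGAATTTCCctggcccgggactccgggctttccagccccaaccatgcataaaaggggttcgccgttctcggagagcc
CXCL3, chr4:74038690-74038789, minus strand: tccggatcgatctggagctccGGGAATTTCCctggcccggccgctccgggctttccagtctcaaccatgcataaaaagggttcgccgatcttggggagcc
CXCL5, chr4:73998678-73998777, minus strand: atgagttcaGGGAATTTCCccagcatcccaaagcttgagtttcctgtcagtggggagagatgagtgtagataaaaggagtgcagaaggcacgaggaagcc
CXCL6, chr4:73836578-73836677, plus strand: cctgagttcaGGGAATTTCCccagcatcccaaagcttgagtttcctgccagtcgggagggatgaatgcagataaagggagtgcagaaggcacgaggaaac
IL6, chr7:22727100-22727199, plus strand: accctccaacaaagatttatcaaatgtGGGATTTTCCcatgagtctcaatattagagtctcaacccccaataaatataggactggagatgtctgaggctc

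Effectors beside the chemokines moved by graded amounts. PTX3, a secreted pattern recognition protein, was lowered from 396 to 20.5 CPM (−4.27, edgeR adjusted p 1.78e-21), and SOD2, the mitochondrial superoxide dismutase induced by NF-kB, had the largest loss in CPM of the set, from 3406, 3354 and 3590 CPM to 384, 406 and 412 CPM (−3.11 ± 0.0612, edgeR adjusted p 1.28e-20). Of 20 NF-kB subunit and feedback genes 14 were called lower, among them TNFAIP3 (−4.28) and NFKBIA (−1.97), while RELA, the main transactivating subunit, was at −0.28 and not called. TNIP3, a feedback inhibitor, was called higher, at 0.434 and 1.57 CPM (1.84, edgeR adjusted p 2.22e-04). The other raised genes of the set, named after their values were seen, were IL17RD (1.33), C5AR1 (0.97), IL11RA (0.79) and HLA-DMA (0.53). Of 32 interferon-stimulated genes 27 were called lower and none higher, with a median of −2.06 and all 32 negative: OAS2 fell from 27.9 to 0.909 CPM (−4.93) and IFI6 from 157 to 9.83 CPM (−4.00), while the factors STAT2 (−0.02) and IRF9 (−0.36) were not called. Class I antigen presentation changed less, with 11 of 15 lower and a range of −1.28 to −0.11, and B2M at −0.26 not called. In prostaglandin synthesis PTGS2, the inducible cyclooxygenase, fell from 52.7 to 7.85 CPM (−2.74) and PTGES from 18.5 to 4.63 CPM (−1.99).

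**Figure D5:**
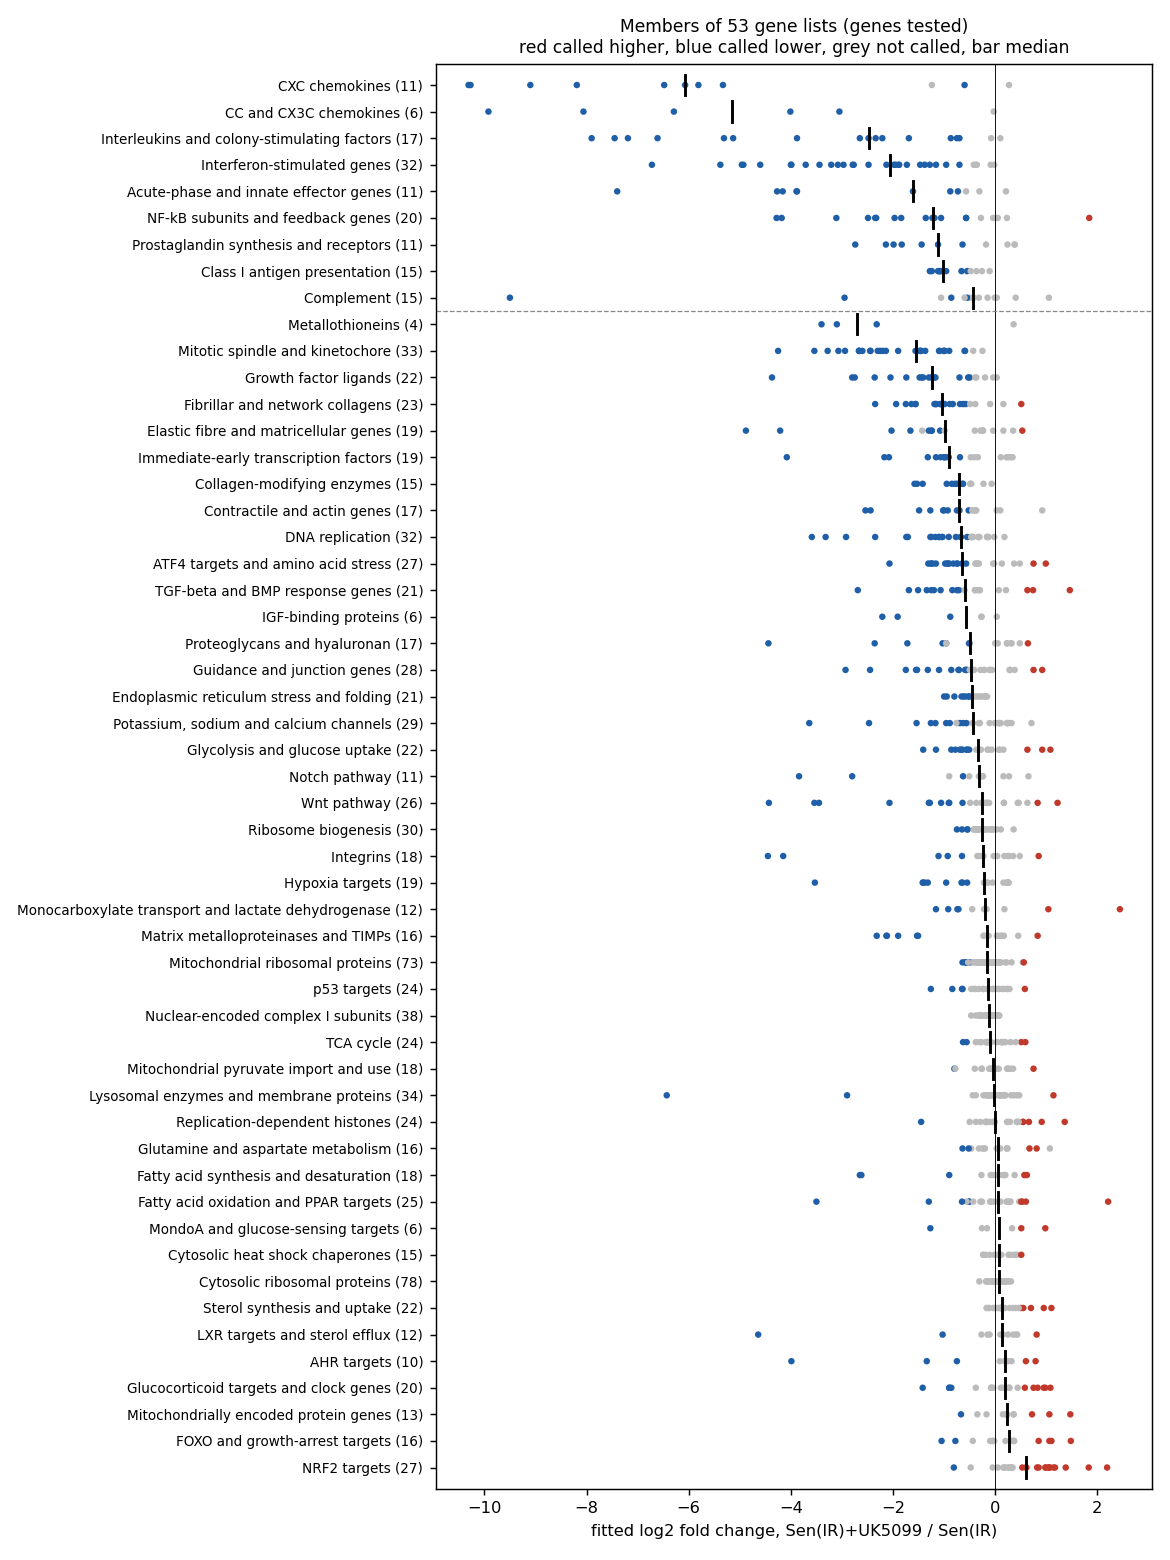
Log2 fold change with UK5099 of every tested member of the 53 gene lists (number tested in brackets), red when called higher, blue when called lower and grey otherwise, with a bar at the list's median. Above the dashed line are the inflammatory lists, from the CXC chemokines (median −6.07) to complement (−0.43). Below it the lists run from metallothioneins (−2.71) to NRF2 targets (0.60), and cytosolic ribosomal proteins (0.08) and complex I subunits (−0.13) sit near 0 without a call.

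The lists of lipid metabolism had no shared direction. Of 25 fatty acid oxidation and PPAR genes 4 were called higher and 5 lower, with CD36, a fatty acid receptor, from 9.95 to 0.880 CPM (−3.50) at one end and FABP4 at the other. Among 18 fatty acid synthesis genes ELOVL2 (−2.65) and ACSL5 (−2.62) were lowered and FASN was at 0.08. The AHR list was also mixed, with SERPINB2, a plasminogen activator inhibitor of the inflammatory set, lowered from 67.3 to 4.21 CPM (−3.99) and CYP1B1 raised from 203 to 350 CPM (0.79). Of 29 ion channel genes 10 were called lower and none higher, TRPA1 from 2858 to 1537 CPM (−0.89). The lysosomal cathepsin CTSK fell from 85.7 to 11.5 CPM (−2.90), whereas LAMP1 (−0.05) and GLB1 (−0.08), the lysosomal beta-galactosidase, were not called.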

How the data were processed

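Total RNA of 3 libraries per group was sequenced as paired reads of 150 bases. Per the study's methods, the authors used Trimmomatic 0.36 for trimming and STAR 2.5.2b for alignment to GRCh38, and the deposited values are raw counts per gene of uniquely mapped exon reads, made with featureCounts (Subread 1.5.2). The annotation release and strand setting are not given in the sources used here. Columns were matched to samples by name. Positions and exon overlaps are from GENCODE release 44, and promoters from RefSeq.

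The table listed 57500 genes, of which 23043 had no count. All 12 libraries were fitted with edgeR 4.0.16 (quasi-likelihood, TMM, filterByExpr), which kept 16251 genes with 99.91% of the counts. The biological coefficient of variation was 6.12%. The fit was also run on simulated data with fewer changed genes, smaller folds and equal numbers in each direction. That run cannot check the scaling or the error rate for these data. Named were the 15 leading raised and 15 leading lowered genes outside the inflammatory set and 5 inside it (mean log2 CPM above 1, no overlap), the 8 largest CPM differences in each direction, up to 4 called members of each of 53 lists, genes at the floor, and MPC1 and MPC2. Further list members, also those not called, were named after their values were seen. The comparison, its lists and the motifs were chosen with earlier results of these data known. Alternatives were DESeq2 1.42.0, other scalings, no filter, the 2 groups alone, a replicate block, other call limits and leaving out each library. The other 6 libraries are described only as levels. Some genes of the lists are not reported here.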

Additional observations from a re-analysis of the deposited data

How the results depend on the processing

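The direction of every one of 230 genes named by rule held under 12 alternatives that refit the data. Of their 2760 values, 2733 kept the status of the main fit, called or, for MPC1 and MPC2, not called, and 27 lost the call. Apart from MPC1 and MPC2, these genes were chosen because they were called, so a reversal was unlikely from the outset. Genes named only after their values were seen are outside this count. Calling only log2 fold changes beyond 1 in either direction left 1511 genes called, 443 higher and 1068 lower, 940 of the latter outside the inflammatory set, since it counts fewer genes by construction. Leaving out each of the 6 libraries in turn gave 3113 to 3352 calls. Same-numbered libraries of the 2 groups did not deviate together (Pearson's r across genes 0.0963, −0.0389 and 0.0587, genes not being independent replicates), and the replicate block gave 3360 calls against 3386. Over the 79 counts of called list members, 1014 of 1106 recomputed values stayed within 1.5 times. The share of calls that were higher was 42% with TMM, 41.1% with RLE, 44.7% with upper-quartile scaling and 40.1% with DESeq2, and the median of all genes moved to at most 0.03. With 3 libraries per group, culture origin not given in the labels and no strand information, small differences, low-count genes and overlapping genes are the least certain.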

Other observations

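Several groups of related genes were assembled after the values of their leading members had been seen, so they are descriptions without a test of the group. Of 9 genes of plasminogen activation and coagulation, 7 were called lower and none higher. F3, tissue factor, which starts coagulation, was at 2368, 2370 and 2326 CPM in Sen(IR) and 700, 666 and 607 CPM with UK5099 (−1.84 ± 0.0504, edgeR adjusted p 4.50e-18), and PLAUR, the urokinase receptor (−1.67), THBD, thrombomodulin (−1.48), and TFPI2 (−1.34) were lowered beside PLAU. TFPI, the tissue factor inhibitor, was at 0.04 and not called. Of 11 retinoid genes 6 were called lower and none higher, with DHRS3, a retinaldehyde reductase, falling from 15.6 to 1.58 CPM (−3.29) and CRABP2 (−2.27), CYP26B1 (−2.06) and RARRES1 (−2.48), all known to respond to retinoic acid, falling too. Among 11 zinc importers of the SLC39 family the called genes were SLC39A8 (21.4 to 3.88 CPM, −2.46) and SLC39A14 (193 to 49.4 CPM, −1.97), both lower.

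Iron genes were split, with FTL, the exporter SLC40A1 (79.3 to 192 CPM, 1.28) and TF, transferrin (1.68), called higher and SLC11A2, an iron importer (145 to 64.2 CPM, −1.17), STEAP3 (−0.89) and ACO1 (−0.56) lower among 11. Of 12 genes of cyclic GMP signalling, GUCY1A1 (1.14 to 3.87 CPM, 1.76), the partner subunit of GUCY1B1, and PDE10A (0.92) were higher besides it, and PDE2A (−2.19), PRKG2 (−0.70) and PDE1C (−0.66) were lower. GUCY1A1 shares 25.0% of its exon bases with other genes. Of 17 aldehyde dehydrogenases and monoamine oxidases 5 were called higher and 4 lower: ALDH5A1 (1.47), ALDH3A2 (1.19), ALDH3B1 (0.80) and ALDH6A1 (0.73) rose with MAOA, while ALDH1A2 (−1.42) and ALDH1A3 (−0.75), which make retinoic acid, and ALDH1L2 (−0.75) and ALDH18A1 (−0.53) fell. ALDH1A3 lost its call without Sen(IR) replicate 3 (−0.64) or UK5099 replicate 1 (−0.63). Chromatin proteins also diverged, with HMGB2 (1.48), HMGN2 (0.79) and HMGN1 (0.59) higher and LMNB1, the lamin B1 gene that declines in senescence (−1.71), HMGA2 (−1.11) and HMGA1 (−0.72) lower.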
